A study of Mus musculus with 2 samples.

Results

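Contractile myocytes were the cells of regenerating mouse muscle chosen for a high summed level of 4 genes of the contractile apparatus: Acta1 (skeletal alpha-actin), Myh3 (embryonic myosin heavy chain), Mylpf (fast regulatory myosin light chain) and Tnnt3 (fast troponin T). They were chosen from the barcodes of 2 libraries that had 1000 UMIs and 500 genes or more and whose mitochondrial UMIs made up 10% or less. Per 10000 UMIs of the cell, the summed macrophage genes Lyz2, C1qa, C1qb and Tyrobp had to lie under 10, the summed mural genes Rgs5, Myh11 and Kcnj8 under 5, and the summed Acta1, Myh3, Mylpf and Tnnt3 at 20 or more. This left 161 of 3287 cells. The GFP+ library gave 29 of its 604 cells (4.80%, exact binomial 95% interval 3.24 to 6.82), and the GFP- library gave 132 of its 2683 (4.92%, 4.13 to 5.81). A UMI is a molecular tag that counts 1 captured transcript, and all intervals here cover counting error only. The cells were sorted by flow cytometry as satellite cells, the stem cells of skeletal muscle, from the injured biceps and recto femoris of Pax3GFP/+ mice 5 days after injury. The GFP allele reports the transcription factor PAX3, and 1 fraction was GFP+ (labelled PAX3+) and the other GFP- (labelled PAX3-). Both fractions came from injured Pax3GFP/+ muscle, although their genotype field reads wild-type. The labels used here give no age, strain or number of animals, and each fraction was 1 library, so no difference between the fractions has a replicate check.

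A satellite cell that leaves the stem state after injury first switches on Myod1 and then Myog, the transcription factor of terminal differentiation. It stops dividing, builds sarcomeres from developmental protein isoforms (embryonic myosin, cardiac actin, cardiac troponin T) and fuses through the membrane proteins Myomaker and Myomixer. Adult fast and slow myosins replace the developmental forms later, inside growing fibres.

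The promoters of 4 developmental or fast contractile genes that the results turn on, and of the cardiac actin gene, are shown because regulators of muscle genes bind there: MyoD-family factors at E-boxes and serum response factor at CArG boxes. Each sequence is the 250 bases before the start in RefSeq's annotation of GRCm38.p6, 5′ to 3′ on the gene's strand. The windows are chr8:123894776-123895025 on the minus strand for Acta1, chr2:114052876-114053125 on the minus strand for Actc1, chr11:67078050-67078299 on the plus strand for Myh3, chr7:127211358-127211607 on the plus strand for Mylpf and chr2:164779735-164779984 on the minus strand for Tnnc2. Capitals mark CAGCTG (its own reverse complement), CACCTG or its reverse complement, the CArG box on both strands, and TATAAA on the gene's strand.
Acta1: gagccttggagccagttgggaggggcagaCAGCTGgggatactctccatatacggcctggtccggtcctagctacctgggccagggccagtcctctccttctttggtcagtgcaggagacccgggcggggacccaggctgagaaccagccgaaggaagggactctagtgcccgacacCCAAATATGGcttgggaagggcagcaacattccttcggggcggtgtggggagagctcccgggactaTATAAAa
Actc1: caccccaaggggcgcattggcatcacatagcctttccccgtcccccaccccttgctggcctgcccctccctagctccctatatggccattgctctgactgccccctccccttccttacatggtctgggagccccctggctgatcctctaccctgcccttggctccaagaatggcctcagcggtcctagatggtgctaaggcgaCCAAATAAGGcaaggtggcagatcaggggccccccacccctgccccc
Myh3: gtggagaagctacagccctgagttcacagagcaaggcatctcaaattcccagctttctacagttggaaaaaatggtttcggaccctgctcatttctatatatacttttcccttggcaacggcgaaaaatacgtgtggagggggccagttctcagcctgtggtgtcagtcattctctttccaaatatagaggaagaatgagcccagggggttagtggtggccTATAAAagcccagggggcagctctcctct
Mylpf: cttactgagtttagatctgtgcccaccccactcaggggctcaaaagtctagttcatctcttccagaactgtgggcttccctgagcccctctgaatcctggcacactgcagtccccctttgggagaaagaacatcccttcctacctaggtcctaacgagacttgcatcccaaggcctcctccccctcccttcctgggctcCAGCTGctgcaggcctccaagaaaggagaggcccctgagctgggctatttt
Tnnc2: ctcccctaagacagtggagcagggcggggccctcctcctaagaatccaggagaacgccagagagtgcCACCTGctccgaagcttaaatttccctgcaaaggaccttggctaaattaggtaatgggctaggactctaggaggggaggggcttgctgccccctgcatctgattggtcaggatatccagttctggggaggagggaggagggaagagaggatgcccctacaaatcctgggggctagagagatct
Acta1 held CAGCTG at bases -221 to -216, a CArG box at -73 to -64 and TATAAA at -7 to -2, counted back from the RefSeq start, which lies upstream of the GENCODE M21 start of the gene. Actc1 held a CArG box at -47 to -38. Myh3 held TATAAA at -29 to -24 and none of the other motifs in this window. Mylpf held CAGCTG at -51 to -46, and Tnnc2 held CACCTG at -183 to -178. By GENCODE M21, Actc1 starts at chr2:114053548 and Mylpf at chr7:127208890, so their windows lie inside the annotated gene. Tnnc2 starts at chr2:164779967 there, so most of its window lies inside the gene as well. Of all 32851 windows of this length in the table, 13.0% held CAGCTG, 17.2% CACCTG, 1.47% a CArG box and 7.59% TATAAA. Among 53 windows of 44 of the 57 sarcomere genes listed here, the shares were 32.1%, 26.4%, 13.2% and 9.43% in the same order of motifs. No motif overlapped another in the 5 sequences shown. Letters that match are a description of the sequence and no evidence of binding.

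The matrices held 13928952 UMIs in the GFP+ library and 49709323 in the GFP- library. Contractile myocytes had a median of 30081 UMIs (1280 to 64583) in the GFP+ library and 22379 (1179 to 82323) in the GFP- library, and median mitochondrial shares of 2.51% and 4.83%. The mitochondrial limit turned away 2 GFP+ and 9 GFP- barcodes that met the 4-gene sum. Both libraries shared 2 cell barcodes, neither of a contractile myocyte. The doublet caller scrublet marked 3 cells in each library (0.497% of GFP+ and 0.112% of GFP- cells), 1 of them a GFP+ contractile myocyte, so doublets were in effect not removed. The feature of the added reporter, H2BGFP-2A-TVA-2A-B19G, had 21 UMIs in 13 of 29 GFP+ contractile myocytes and 0 UMIs in the 132 GFP- ones. Droplets of 1 to 100 UMIs held free Acta1 RNA at 417 CPM (UMIs scaled to 1000000) in the GFP+ library and 599 in the GFP- library. The same droplets held Lyz2 at 2196 and 513 CPM, against 7.98 and 1.53 in contractile myocytes, which the rule kept low in Lyz2.

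Most markers of other cell types were low in these cells. Acta2, Scx and some fibroadipogenic genes, among them Col3a1, were exceptions. Summed over 9 macrophage genes, contractile myocytes had 25.1 CPM in the GFP+ library and 3.36 in the GFP- library, against 41993 and 30834 in the cells over the macrophage limit. Lyz2, C1qa, C1qb and Tyrobp of this list set that limit, so the rule itself fixed much of this contrast. The 7 endothelial genes summed to 4.56 and 5.50 CPM, the 6 glial genes to 1.14 and 4.59, and the 5 erythroid genes to 0 in both. The 7 fibroadipogenic genes summed to 253 and 193 CPM, below 1597 and 1013 in other cells, with Col3a1, a fibrillar collagen, giving 149 and 117. The mural list summed to 4586 and 4690 CPM, of which Acta2, smooth muscle actin, gave 4553 and 4652. The mural genes Rgs5, Myh11 and Kcnj8 had 0, 0 and 0 UMIs in GFP+ and 2, 0 and 1 in GFP- contractile myocytes. The rule itself kept only cells low in Rgs5, Myh11 and Kcnj8, so their low counts say nothing about the source of Acta2. The tenocyte list summed to 159 and 257 CPM, of which Scx gave 157 and 257, with Tnmd and Mkx at 0 UMIs in both libraries. Whether these cells hold RNA of other types beyond that was not tested.

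The 4 genes that chose the cells are described here without a test. The 4-gene sum had a median of 39.5 per 10000 UMIs (20.0 to 367) in GFP+ and 63.1 (20.4 to 523) in GFP- contractile myocytes. The limit cut through a continuous range: the 2 values just over it were 20.0 and 20.6 in the GFP+ library and 20.4 and 20.7 in the GFP- library, and the 2 just under it were 19.4 and 16.2 in GFP+ and 19.5 and 19.2 in GFP- cells. Between 20 and 25 there were 4 GFP+ and 9 GFP- cells, and between 15 and 20 there were 3 and 17. Acta1 carried the sum. It gave 71.2% of the 4-gene UMIs in GFP+ and 55.6% in GFP- contractile myocytes, and the larger part of the sum in 24 of 29 and 88 of 132 cells.

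The word embryonic fitted the data only in part, so the cells are called contractile myocytes here. Myh3 (ENSMUSG00000020908, chr11:67078300-67102291 in mm10) had 0 UMIs in 10 of 29 GFP+ and 33 of 132 GFP- contractile myocytes. It reached 5 per 10000 UMIs in 5 GFP+ cells (17.2%) and 41 GFP- cells (31.1%). Mylpf reached that level in 14 GFP+ cells (48.3%) and 110 GFP- cells (83.3%), and Tnnt3 in 4 (13.8%) and 62 (47.0%). Every cell was then thinned to 5000 UMIs, and 2 GFP+ and 5 GFP- contractile myocytes were too shallow for this. Myh3 was seen in 8 of the remaining 27 and 78 of the remaining 127. Among the other cells described below, thinned alike, it was seen in 3 of 409 GFP+ and 23 of 2022 GFP- cells, whose median depths before thinning were 18703 and 14536.5 UMIs. Unthinned, the Myh3 shares were 65.5% and 75.0% in contractile myocytes, against 2.37% and 2.87% in other cells. The Myog-positive cells described below lay between: Myh3 was seen in 4 of 34 GFP+ and 25 of 218 GFP- cells thinned alike. Unthinned, their shares were 28.6% and 27.2%. Myh3 helped to choose the contractile myocytes, so the rule set these contrasts in part.

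Myog marked nearly all of the cells, although the rule did not use it. Contractile myocytes had a median of 59.8 Myog UMIs per 10000 (0 to 129.8) in the GFP+ library and 61.5 (0 to 116.4) in the GFP- library. In 3 GFP+ and 12 GFP- cells Myog lay under 10 per 10000. For comparison, cells under the same limits were split into Myog-positive cells, with Myog at 10 or more per 10000 and a 4-gene sum under 20 (35 GFP+ and 224 GFP- cells), and other cells, with both below (465 and 2158 cells). Myog-positive cells had a median Myog of 60.3 per 10000 in the GFP+ library and 33.5 in the GFP- library.

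**Figure D1:**
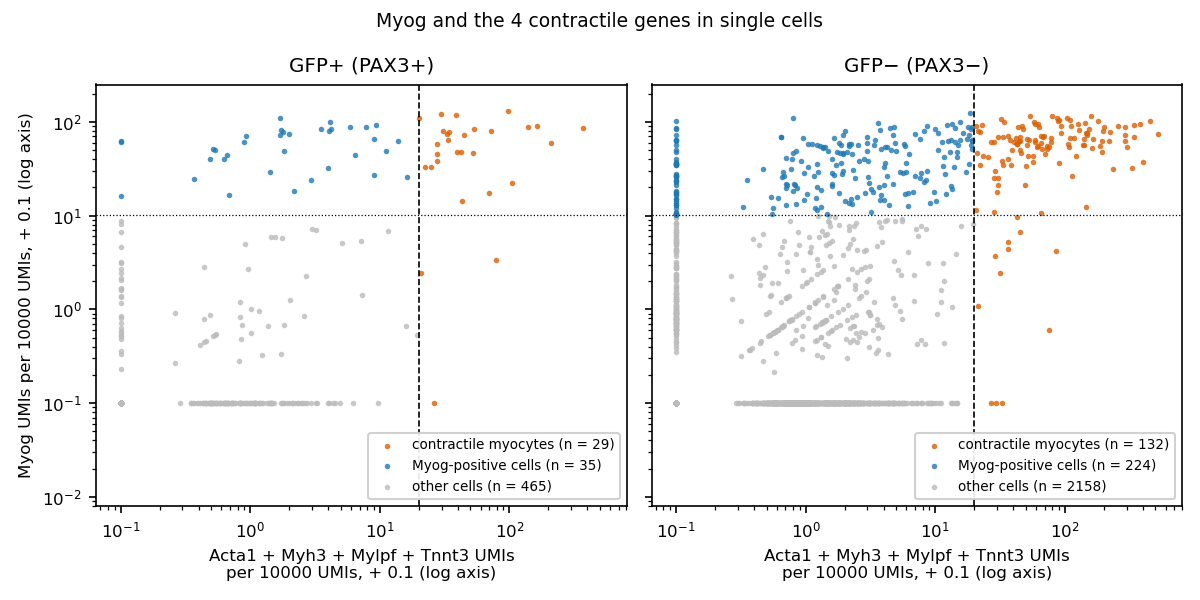
Each point is 1 cell of the GFP+ library (left) or the GFP- library (right), with the summed Acta1, Myh3, Mylpf and Tnnt3 UMIs per 10000 on the x axis and Myog UMIs per 10000 on the y axis, both plus 0.1 on log axes. The dashed line is the 4-gene limit of 20 and the dotted line a Myog level of 10; most of the 29 GFP+ and 132 GFP- contractile myocytes lie above the dotted line, and 3 and 12 lie under it.

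To describe levels, the UMIs of all cells of a kind were summed within a library and scaled to 1000000 UMIs (CPM), which counts transcripts by their 3′ end without regard to length. A gene was called higher or lower where it had at least 20 CPM on 1 side and a ratio of at least 2 or at most 0.5. A gene that reached 20 CPM on 1 side only could be called in that direction alone, also in the counts by list below. Against Myog-positive cells, 268 of 5534 genes with 20 CPM were higher (4.84%) and 195 lower (3.52%) in the GFP+ library, 8.37% in all. Of 5676 genes in the GFP- library, 207 were higher (3.65%) and 130 lower (2.29%), 5.94% in all. The calls in common were 86 higher and 33 lower in both libraries, and 5 with opposite directions, of 5209 genes with 20 CPM in both. The Myog-positive and other cells were set by the 4-gene sum itself, so the ratios of the 4 genes are fixed by the rule.

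Among the myosin heavy chains, the motor proteins of the thick filament, Myh3 was the form read at the highest count, and the adult forms stayed under 20 CPM. Myh3 had 274 CPM in contractile myocytes and 34.8 in Myog-positive cells of the GFP+ library, and 638 and 31.5 CPM in the GFP- library. The perinatal form Myh8 had 6.84 CPM (6 UMIs in 2 cells) in GFP+ and 18.3 CPM (60 UMIs in 15 cells) in GFP- contractile myocytes, where Myog-positive cells had 2.32 and 1.02. Myh1, an adult fast form, had 12.5 and 18.6 CPM in the contractile myocytes. The slow form Myh7 had 0 UMIs in GFP+ cells, which allows up to 3 UMIs over the group, and 9 UMIs in 3 GFP- cells. Myh2 had 0 and 6 UMIs and Myh4 had 1 and 0, both adult fast forms. None of the 7 heavy chain genes beside Myh3 reached 20 CPM, so none could be called.

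The essential light chains, which brace the myosin neck, were higher with Mylpf in both libraries. Myl4, the embryonic and atrial form, had 435 CPM in contractile myocytes and 138 in Myog-positive cells of the GFP+ library (ratio 3.15, exact 95% interval 2.55 to 3.90). In the GFP- library it had 1073 and 128 CPM (8.41, 7.66 to 9.25). Myl1, the fast form, had 573 and 130 CPM in the GFP+ library (4.40) and 1131 and 171 CPM in the GFP- library (6.62). Both were read widely, Myl1 in 28 of 29 GFP+ and 128 of 132 GFP- contractile myocytes. Myl2 and Myl3, the slow and ventricular forms, had 2 and 0 UMIs in GFP+ and 4 and 3 UMIs in GFP- contractile myocytes.

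Among thin filament genes other than Acta1 and Tnnt3, 6 of 14 measured were called higher among GFP+ cells and 12 of 15 among GFP- cells, and none was called lower. Their median log2 ratio was 0.96 and 1.60, against 0.03 and -0.05 over all genes with 20 CPM. Actc1, cardiac alpha-actin, differed little in the GFP+ library, at 2286 CPM in contractile myocytes and 1737 in Myog-positive cells (ratio 1.32, 1.23 to 1.41). In the GFP- library it had 3581 and 1177 CPM (3.04, 2.94 to 3.15). In other cells Actc1 had 5.95 CPM in the GFP+ library and 7.19 in the GFP- library, far below the Myog-positive cells.

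The troponins, which make the thin filament answer to calcium, were read in several isoforms at once. Tnnt2, cardiac troponin T, had 1787 CPM in contractile myocytes and 904 in Myog-positive cells of the GFP+ library (1.98) and 2478 and 1049 CPM in the GFP- library (2.36). Slow troponin I, Tnni1, had 404 and 146 CPM (2.76) and 895 and 198 CPM (4.53), and fast troponin I, Tnni2, had 141 and 38.3 CPM (3.69) and 382 and 54.6 CPM (6.99). The calcium-binding troponin C genes were read in few cells. Tnnc1, the slow and cardiac form, had 90 UMIs in 8 of 29 GFP+ contractile myocytes, 80 of them in 1 cell, and 733 UMIs in 39 of 132 GFP- ones. Against 0 UMIs in GFP+ Myog-positive cells it was at least 29.5-fold higher, from a floor of 3 UMIs over the group, and in the GFP- library the ratio was 80.2 (44.5 to 161). Tnnc2, the fast form (chr2:164777161-164779967 in mm10), had 21.7 CPM in contractile myocytes and 2.32 in Myog-positive cells of the GFP+ library, and 274 and 15.5 CPM in the GFP- library. Its span overlaps that of Ube2c, a gene of the cell cycle list on the opposite strand. Whether this overlap affected the Tnnc2 counts was not tested. Tropomyosins differed less: Tpm1 had ratios of 1.73 and 1.49, Tpm2 1.92 and 2.12, and Tpm3, widely used outside muscle, 0.676 and 0.809. The leiomodins, which set thin filament length, were among the larger ratios: Lmod3 had 54.7 CPM in contractile myocytes and 4.64 in Myog-positive cells of the GFP+ library (11.8) and 123 and 6.61 CPM in the GFP- library (18.7).

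**Figure D2:**
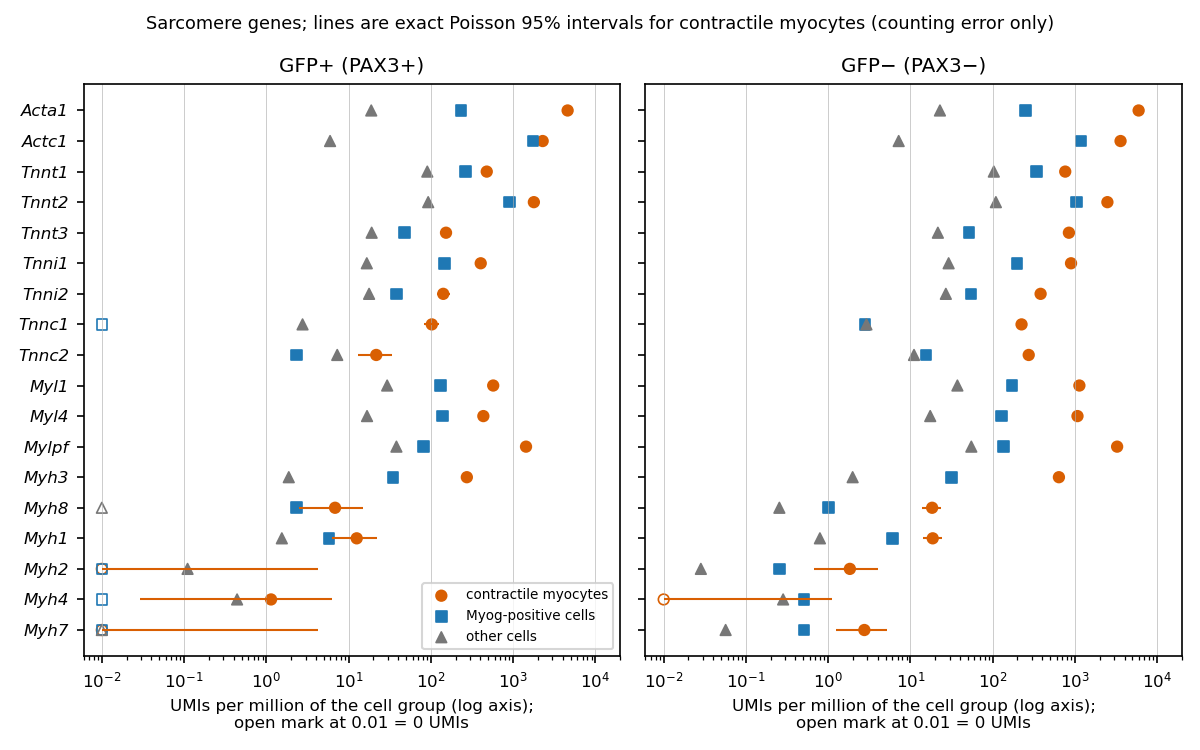
CPM, UMIs scaled to 1000000 (log axis), of 18 sarcomere genes in contractile myocytes, Myog-positive cells and other cells of the GFP+ library (left) and the GFP- library (right), with open marks for 0 UMIs and lines for exact Poisson 95% intervals of the contractile myocytes. Developmental forms such as Myh3, Actc1, Tnnt2 and Myl4 lie above 100 CPM in contractile myocytes of both libraries, and Myh2, Myh4 and Myh7 lie under 3 CPM.

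Of the Z-disc, M-band and titin genes, 5 of 13 measured were called higher among GFP+ cells and none lower, and 11 of 16 were higher among GFP- cells and 1 lower. Ttn, the giant spring that spans the sarcomere, had 2429 CPM in contractile myocytes and 939 in Myog-positive cells of the GFP+ library (2.59, 2.39 to 2.81), and 2835 and 1297 CPM in the GFP- library (2.19, 2.11 to 2.26). Nebulin, Neb, the thin filament ruler, had ratios of 1.67 and 2.05. Desmin, Des, the intermediate filament of muscle, was read in all 29 GFP+ and 132 GFP- contractile myocytes and had ratios of 1.64 and 1.69. Mybph, a myosin-binding protein, had 107 CPM in contractile myocytes and 8.12 in Myog-positive cells of the GFP+ library (13.2, 6.16 to 33.7) and 181 and 6.61 CPM in the GFP- library (27.4, 18.5 to 42.3). Csrp3, the muscle LIM protein, had 25.1 and 3.48 CPM (7.21) in the GFP+ library and 173 and 8.38 CPM (20.7) in the GFP- library. Myom2, an M-band gene, had 11 UMIs in 5 GFP+ contractile myocytes and 0 in GFP+ Myog-positive cells, and 45.2 and 1.27 CPM in the GFP- library (35.6). Mybpc1, slow myosin-binding protein C, was the gene called lower, at 26.3 CPM in contractile myocytes and 65.0 in Myog-positive cells of the GFP- library (0.404, 0.313 to 0.518), and had 38.8 and 52.2 CPM in the GFP+ library (0.743).

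Of the chaperones and scaffolds of sarcomere assembly, 4 of 6 measured were called higher in the GFP+ and 6 of 8 in the GFP- library, with none lower. Unc45b, the myosin chaperone, had 76.4 CPM in contractile myocytes and 13.9 in Myog-positive cells of the GFP+ library (5.49, 2.94 to 11.1), and 140 and 20.3 CPM in the GFP- library (6.89, 5.42 to 8.85). Klhl41 and Klhl40, which stabilise nebulin and leiomodin, had ratios of 2.74 and 3.54 in the GFP+ and 4.32 and 4.09 in the GFP- library. Smyd1, a muscle methyltransferase that acts with the myosin chaperones, had ratios of 3.24 and 3.46. Xirp1, which marks repairing and growing sarcomeres, had 11 UMIs in GFP+ contractile myocytes and 0 in GFP+ Myog-positive cells, and 36.7 and 1.27 CPM in the GFP- library (28.9).

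Genes of the triad, where the membrane signal releases calcium, were called higher for 7 of 12 measured in the GFP+ and 8 of 14 in the GFP- library. Casq2, which stores calcium in the sarcoplasmic reticulum, had 27.4 CPM in contractile myocytes and 0 UMIs in Myog-positive cells of the GFP+ library (at least 7.86-fold higher), and 64.8 and 0.762 CPM in the GFP- library (85.0). Trdn, triadin, had ratios of 28.5 and 15.1, with 18 of its 29 GFP+ UMIs in 1 cell. The voltage sensor's gamma subunit, Cacng1, had 310 and 142 CPM (2.19) in the GFP+ and 421 and 215 CPM (1.96) in the GFP- library. The calcium pump Atp2a1 had 474 and 375 CPM (1.27) and 341 and 222 CPM (1.54), and the release channel Ryr1 had ratios of 2.08 and 1.39. The adult partner Casq1 had 0 UMIs in GFP+ and 11 UMIs in 3 GFP- contractile myocytes.

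The acetylcholine receptor was read in its fetal makeup. Chrng, the fetal gamma subunit, had 127 CPM in contractile myocytes and 54.5 in Myog-positive cells of the GFP+ library (2.32, 1.64 to 3.34), and 151 and 67.3 CPM in the GFP- library (2.24, 1.92 to 2.61). The adult epsilon subunit, Chrne, had 0 UMIs in GFP+ and 1 UMI in GFP- contractile myocytes. Chrna1 had 923 and 672 CPM (1.37) in the GFP+ and 1259 and 830 CPM (1.52) in the GFP- library. Of 7 measured neuromuscular genes, 2 were called higher in the GFP+ library and 1 in the GFP- library, and none lower.

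The fusion genes Mymk and Mymx were high in contractile and Myog-positive cells. Mymk, Myomaker, had 729 CPM in contractile myocytes and 520 in Myog-positive cells of the GFP+ library (1.40, 1.24 to 1.59), and 793 and 314 CPM in the GFP- library (2.53, 2.36 to 2.71), against 6.61 and 5.83 CPM in other cells. Mymx, Myomixer, had 634 and 353 CPM (1.80) in the GFP+ and 917 and 396 CPM (2.32) in the GFP- library. Cav3, the muscle caveolin, differed more, at 62.7 and 19.7 CPM (3.18) and 184 and 19.8 CPM (9.27). Of the fusion and membrane genes measured, 2 of 10 were called higher than in Myog-positive cells in the GFP+ and 3 of 9 in the GFP- library, with none lower. Against other cells, 5 of 10 were called higher in the GFP+ library, and 5 of 10 higher and 1 lower in the GFP- library. Over all genes measured against other cells, 8.40% were called higher and 15.0% lower in the GFP+ library, and 8.25% and 13.9% in the GFP- library. Cdh15, M-cadherin, had ratios of 1.01 and 0.799.

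Among myogenic transcription factors, Mef2c stood apart from the rest. It had 60.4 CPM in contractile myocytes and 4.64 in Myog-positive cells of the GFP+ library (13.0, 4.80 to 49.5), and 186 and 12.2 CPM in the GFP- library (15.3, 11.4 to 20.97). Its relatives Mef2a and Mef2d had ratios of 1.21 and 1.04 in the GFP+ and 1.44 and 1.21 in the GFP- library. Myog had 6031 and 5702 CPM (1.06) in the GFP+ and 5447 and 3709 CPM (1.47) in the GFP- library, although Myog itself chose the Myog-positive cells. Myod1 had ratios of 0.936 and 1.38, and Myf6, a factor of later muscle, had 0 UMIs in GFP+ and 5 UMIs in 2 GFP- contractile myocytes. Of the whole list, 1 of 8 measured factors was called higher in the GFP+ library, and 2 of 10 higher and 1 lower in the GFP- library.

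Satellite cell genes were low in both differentiating groups. Pax7, the stem cell factor, had 12.5 CPM in contractile myocytes, 13.9 in Myog-positive cells and 242 in other cells of the GFP+ library, and 11.6, 25.4 and 173 CPM in the GFP- library. Myf5 had 18.2, 18.6 and 351 CPM in the GFP+ and 36.1, 33.3 and 226 CPM in the GFP- library, in the same order of cells. Against other cells, 9 of 10 measured satellite cell genes were called lower in GFP+ and 8 of 9 in GFP- contractile myocytes. Over all 6107 genes of that comparison in the GFP+ library, 8.40% were called higher and 15.0% lower (23.4% in all), and over all 6132 in the GFP- library 8.25% and 13.9% (22.2% in all). Against the same other cells, 13 of 14 thin filament genes were called higher in GFP+ and 13 of 15 in GFP- contractile myocytes. Scaling the GFP+ cells by the median gene instead of the total shifted each log2 ratio of that comparison, which dropped by 0.19, and 405 genes were then called higher and 1182 lower, against 513 and 916 as above. Of the lists, 10 of 10 satellite cell genes were then lower and 12 of 14 thin filament genes higher. Pax3 had 5 UMIs in 4 of 29 GFP+ contractile myocytes (5.70 CPM) and 3 UMIs in 3 of 132 GFP- ones (0.917 CPM), against 23.9 and 5.46 CPM in other cells.

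The cell cycle inhibitor genes Cdkn1c and Cdkn1a were high in contractile and Myog-positive cells. Cdkn1c, the inhibitor p57, had 6258 CPM in contractile myocytes and 7447 in Myog-positive cells of the GFP+ library (0.840, 0.810 to 0.871), and 6717 and 7377 CPM in the GFP- library (0.911, 0.895 to 0.927), against 1018 and 1292 CPM in other cells. Cdkn1a, the inhibitor p21, had 1034 and 701 CPM (1.48) in the GFP+ and 1200 and 482 CPM (2.49) in the GFP- library. Ccnd1, cyclin D1, had 22.8 and 87.0 CPM (0.262) in the GFP+ and 45.2 and 60.5 CPM (0.748) in the GFP- library. Of the 8 genes listed for cell cycle exit, 3 were called higher and 1 lower than in other cells in the GFP+ library, and 3 higher and 2 lower in the GFP- library. Against Myog-positive cells, 1 of 8 was called lower in the GFP+ library and 1 of 7 higher in the GFP- library.

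Of the cycling genes, Mki67 was held by few of the cells and Rrm2 by more. Mki67, a marker of dividing cells, had 14 UMIs in 4 of 29 GFP+ contractile myocytes and 85 UMIs in 12 of 132 GFP- ones. Of those 85 UMIs, 56 lay in the 12 GFP- cells with Myog under 10 per 10000. Rrm2, a subunit of the enzyme that makes deoxynucleotides, was read in 13 of 29 GFP+ and 61 of 132 GFP- contractile myocytes. In the GFP+ library 1 cell held 73 of its 90 UMIs. The summed cycle genes had medians of 1.58 (GFP+) and 1.53 (GFP-) per 10000 UMIs in contractile myocytes. Those medians were 1.06 and 1.53 in Myog-positive cells, and 1.07 and 1.74 in other cells. Against Myog-positive cells, 3 of 13 measured cycle genes were called higher among GFP+ cells and none of 15 among GFP- cells. Against other cells, 1 of 17 was called higher and 4 lower in the GFP+ library, and 9 of 18 were lower in the GFP- library. Whether the cells with cycling genes were doublets was not tested further.

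Among metabolic genes, the muscle forms Ckm and Pgam2 had larger ratios than the general enzymes Pgam1 and Pkm. Ckm, muscle creatine kinase, had 78.7 CPM in contractile myocytes and 6.96 in Myog-positive cells of the GFP+ library (11.3, 4.94 to 31.9), and 203 and 5.59 CPM in the GFP- library (36.3, 23.8 to 58.3). Pgam2, the muscle phosphoglycerate mutase, had ratios of 16.2 and 8.88, while Pgam1, the general form, had 1.24 and 0.979. The brain-type creatine kinase Ckb had 806 and 571 CPM (1.41) in the GFP+ and 1042 and 537 CPM (1.94) in the GFP- library, and Pkm, pyruvate kinase, had ratios of 1.24 and 1.21. Mb, myoglobin, had 22.8 and 8.12 CPM (2.81) and 72.4 and 11.2 CPM (6.48). Of the metabolic genes measured, 7 of 15 were called higher in the GFP+ library, and 5 of 13 higher and 1 lower in the GFP- library. The imprinted RNA H19, high in embryonic muscle, had 356 and 153 CPM (2.32) in the GFP+ and 391 and 145 CPM (2.69) in the GFP- library.

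**Figure D3:**
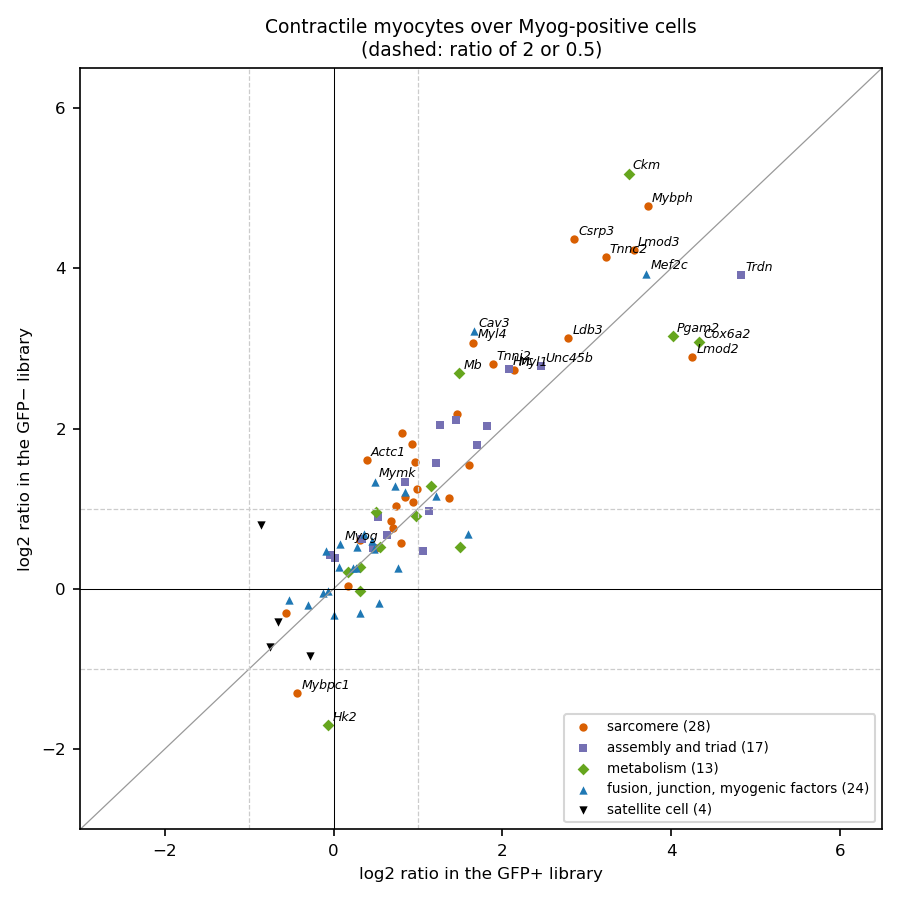
Each mark is a listed gene, placed by the log2 ratio of contractile myocytes over Myog-positive cells in the GFP+ library (x axis) and in the GFP- library (y axis). Shown are genes with at least 20 CPM in either cell group of each library and UMIs in both groups, without the 4 genes of the rule. A gene with 20 CPM in contractile myocytes alone lies above 0 by this filter. Of 28 sarcomere genes 26 lie above 0 in both libraries and 2 below, of 17 assembly and triad genes 16 lie above 0 in both, and of 4 satellite cell genes none does.

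Genes outside these lists were ranked by the less extreme ratio of the 2 libraries, among those with at least 50 CPM on the higher side in both. Among the 12 highest were Cavin4, Tmem182, Cdc42ep3, Otud1, Cck, Dclk1, Akap6, Rrad, Hspb8, Filip1 and Gatm. Cavin4, a muscle caveolae protein, had 120 CPM in contractile myocytes and 10.4 in Myog-positive cells of the GFP+ library (11.5, 5.81 to 25.8), and 190 and 25.4 CPM in the GFP- library (7.48, 6.05 to 9.34). Tmem182 had ratios of 24.6 and 7.22, and Hspb8, a small heat shock protein, 2.90 and 7.15. Cck, which encodes the peptide cholecystokinin, had 124 and 34.8 CPM (3.57) in the GFP+ and 57.2 and 5.34 CPM (10.7) in the GFP- library, in 10 of 29 and 32 of 132 contractile myocytes. The 8 lowest were Plxna2, Igfbp3, Sox4, Bgn, Nfia, Socs3, Spsb1 and Spats2l. Plxna2, a semaphorin receptor, had 20.5 CPM in contractile myocytes and 76.6 in Myog-positive cells of the GFP+ library (0.268), and 19.6 and 79.3 CPM in the GFP- library (0.247). Bgn, the proteoglycan biglycan, had ratios of 0.424 and 0.256, and Socs3, a brake on cytokine signalling, 0.331 and 0.439. Plxna2 was higher in Myog-positive cells than in other cells, which had 41.3 and 42.2 CPM, whereas Bgn, Igfbp3, Sox4, Nfia, Socs3, Spsb1 and Spats2l were lower in contractile and Myog-positive cells than in other cells of both libraries.

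Along the range of the 4-gene sum, a range of 1 score and not a set of cell types, the cells with sums of 20 to 50, 50 to 200 and 200 or more numbered 18, 9 and 2 in the GFP+ library and 52, 64 and 16 in the GFP- library. In that order, Myl4 had 123, 771 and 1807 CPM in GFP+ and 265, 1133 and 3097 CPM in GFP- cells. Tnnc1, read in few cells, had 8.92, 11.99 and 1245 CPM in GFP+ and 27.3, 144 and 1007 CPM in GFP- cells, and the highest GFP+ value rests on 1 cell. Ckm had 53.5, 116 and 152 CPM in GFP+ and 20.5, 193 and 733 CPM in GFP- cells, and Mef2c had 53.5, 71.9 and 75.9 CPM in GFP+ and 62.1, 195 and 501 CPM in GFP- cells. Csrp3 had 3.57, 67.9 and 45.5 CPM in GFP+ and 40.9, 146 and 619 CPM in GFP- cells. Myh1, Myh7, Tcap and Xirp2 were highest at sums of 200 or more in the GFP- library. Tcap, the titin cap, had 72.5 CPM there and Myh7 18.6 CPM, against 0 at sums of 20 to 50, and Myh7 rests on the few UMIs given above. Over all sums, the 12 listed adult fibre genes had 1089 CPM in GFP+ and 1359 in GFP- contractile myocytes, against 715 and 678 in Myog-positive cells. Of 5 measured, 3 were called higher than in Myog-positive cells in each library, against 4.84% (GFP+) and 3.65% (GFP-) of all genes.

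Among regulators, Myog had 5795, 6560 and 6028 CPM in GFP+ and 3885, 6495 and 6529 CPM in GFP- cells, and Cdkn1c had 6516, 6492 and 3173 CPM in GFP+ and 5527, 8258 and 5282 CPM in GFP- cells, lowest at the top of the range in both. Cdkn1a had 1022, 891 and 1685 CPM in GFP+ and 639, 1341 and 2305 CPM in GFP- cells. Mki67 had 49.2, 13.6 and 0 CPM in GFP- cells, and Meg3, an imprinted RNA, had 32.6, 0.681 and 0 CPM. The satellite cell factor Pax7 had 14.4, 12.3 and 2.07 CPM in the same GFP- cells.

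**Figure D4:**
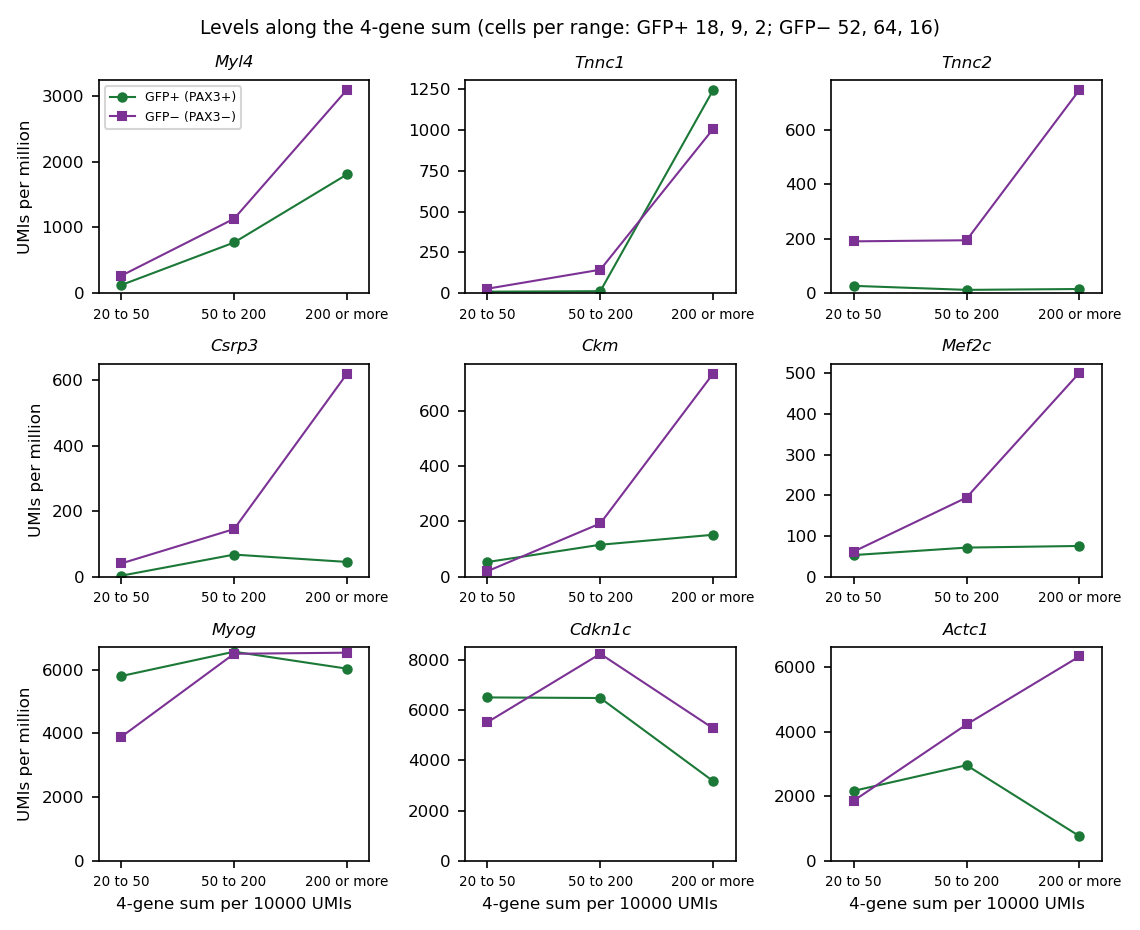
CPM (y axis, from 0) of 9 genes in contractile myocytes with a 4-gene sum of 20 to 50, 50 to 200 and 200 or more per 10000 UMIs (x axis), in the GFP+ library (green circles; 18, 9 and 2 cells) and the GFP- library (purple squares; 52, 64 and 16 cells). Myl4, Csrp3, Ckm and Mef2c are highest at the top of the range in the GFP- library, and Tnnc2 stays under 30 CPM in all 3 ranges of the GFP+ library.

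GFP+ contractile myocytes had lower levels than GFP- ones of Tnnc2, Tnnt3, Csrp3, Tnni2 and Myl4, while Myog, Mymk, Cdkn1c and Cdkn1a stood closer to equal. Of 5545 genes with 20 CPM, 112 were higher (2.02%) and 180 lower (3.25%) in GFP+ contractile myocytes, 5.27% in all, with 1 library on each side and no test. With each cell weighted equally, 305 were higher and 228 lower, so that 57.2% of the calls were higher in GFP+ cells, against 38.4% with summed UMIs. The exact interval lay beyond 1 for 103 of the higher and 171 of the lower genes. Summed genes of dissociation stress, which the isolation of cells itself can switch on, had 1283 CPM in GFP+ and 986 CPM in GFP- contractile myocytes; their part in these differences was not tested. Tnnc2 had 19 UMIs in 9 of 29 GFP+ contractile myocytes (21.7 CPM) and 896 UMIs in 66 of 132 GFP- ones (274 CPM), a ratio of 0.0791 (0.0474 to 0.124). Tnnt3, a gene of the rule, had 153 CPM in GFP+ and 844 CPM in GFP- cells (0.181, 0.151 to 0.215). Mylpf had 1435 and 3253 CPM (0.441), Myh3 274 and 638 CPM (0.429) and Acta1 4597 and 5941 CPM (0.774), in the same order of fractions. In the GFP+ library 1 cell held 478 of the 1258 Mylpf UMIs, and 1 cell held 51 of the 134 Tnnt3 UMIs. Median levels per cell were 2.06 (GFP+) and 19.3 (GFP-) per 10000 UMIs for Mylpf and 0.318 and 4.30 for Tnnt3. For Myh3 they were 0.792 and 2.12, and for Acta1 30.3 and 39.3.

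By list, thin filament genes were called lower for 5 of 15 measured and higher for none, with a median log2 ratio of -0.65 against -0.05 over all genes with 20 CPM. The Z-disc, M-band and titin list had 5 of 16 lower, the assembly list 2 of 8, the triad list 3 of 14 and the fusion list 1 of 10 lower with 1 higher. Csrp3 had 25.1 CPM in GFP+ and 173 CPM in GFP- contractile myocytes (0.145, 0.0900 to 0.221), and Myoz2, a Z-disc protein of slow and cardiac muscle, had 1 and 71 UMIs (0.0525, 0.00131 to 0.302). Mef2c had 60.4 and 186 CPM (0.324), Tnni2 141 and 382 CPM (0.370), Tnni1 404 and 895 CPM (0.451) and Myl4 435 and 1073 CPM (0.405). Closer to 1 were Mymk with 729 and 793 CPM (0.919), Cdkn1c with 6258 and 6717 CPM (0.932), Cdkn1a with 1034 and 1200 CPM (0.862) and Myog with 6031 and 5447 CPM (1.11, 1.07 to 1.14). Acta2 had 4553 and 4652 CPM (0.979).

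The fractions also lay differently on the 4-gene sum, where 18 of 29 GFP+ cells had sums of 20 to 50, against 52 of 132 GFP- cells. Within sums of 20 to 50, Tnnc2 had 26.8 CPM in GFP+ and 190 CPM in GFP- cells (0.141, 0.0776 to 0.237), Tnnt3 87.4 and 262 CPM (0.333), Mylpf 539 and 1240 CPM (0.434) and Csrp3 3.57 and 40.9 CPM (0.0872). Csrp3 had only 22 UMIs in 8 of 29 GFP+ contractile myocytes over the whole range, so its GFP+ value here rests on few UMIs. Within sums of 20 to 50 the median Tnnc2 level per cell was 0 in both fractions. Of the 251 GFP- Tnnc2 UMIs there, 1 cell held 72 and another 43, and these cells also held 17 and 14 Mki67 UMIs. A cell with 24 Tnnc2 UMIs held 17 Mki67 UMIs, while cells with 29 and 24 held 0. Acta1 had 2469 and 1836 CPM (1.34) within sums of 20 to 50. Since cells of that range are held to a narrow range of the 4-gene sum, the levels of Acta1, Mylpf, Tnnt3 and Myh3 are tied to each other. Within the same sums several genes were higher in GFP+ cells, among them Myog at 5795 and 3885 CPM (1.49), Mymk at 640.3 and 426 CPM and Cdkn1a at 1022 and 639 CPM (1.60). Tnni1, lower over all cells, was higher here at 378 and 314 CPM (1.21, 1.02 to 1.43), and so was Ckm at 53.5 and 20.5 CPM (2.62) and Klhl41 at 219 and 151 CPM (1.45, 1.15 to 1.82). The sarcomere genes Lmod2 and Actn2 were higher too, at 82.0 and 27.3 CPM (3.01, 1.90 to 4.79) and at 24.97 and 10.6 CPM (2.35, 1.04 to 5.33). So were the calcium pump gene Atp2a1, at 494 and 252 CPM (1.96), and the small heat shock gene Cryab, at 844 and 475 CPM (1.78). The interval of Mef2c spanned 1 (0.862, 0.547 to 1.32). Within sums of 50 or more, Tnnc2 had 12.7 CPM in GFP+ and 331 CPM in GFP- cells (0.0383, 0.0104 to 0.0985), Tnnt3 269 and 1237 CPM (0.217), Tnni2 133 and 485 CPM (0.274) and Mef2c 72.7 and 271 CPM (0.269). Acta1 there had 8372 and 8718 CPM (0.960) and Myog 6449 and 6504 CPM (0.992).

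Of the genes furthest apart between the fractions, some had like ratios in all 3 cell groups and others did not. Among the 8 highest in GFP+ contractile myocytes were Hist1h2ap, Hk2, Snhg9, Polr2l, Hist1h2ae, Rnaset2a and Bloc1s1. Polr2l, an RNA polymerase subunit, had ratios of 4.75 in contractile myocytes, 3.53 in Myog-positive cells and 3.91 in other cells. Snhg9 had 5.60, 4.70 and 3.43, and Bloc1s1 had 3.83, 4.09 and 3.13, in the same order of cells. These 3 genes were higher in GFP+ cells of all 3 groups. Hist1h2ap, a histone gene of S phase, had 160 UMIs in 4 GFP+ contractile myocytes, of which 95 and 62 lay in 2 cells, against 52 UMIs in 9 GFP- ones. Hk2, hexokinase 2, had 45.6 CPM in GFP+ and 6.73 CPM in GFP- contractile myocytes (6.78, 3.94 to 11.98), where the ratio was 2.18 in Myog-positive and 2.44 in other cells. With Acta1 left out of the 4-gene sum the contractile ratio was 0.870 for Hk2 and 0.483 for Hist1h2ap.

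The 8 lowest in GFP+ contractile myocytes were Tnnc2, Cxcl10, Tnnt3, Csrp3, Fgf21, Gal, Myoz2 and Tuba4a. Gal, which encodes the neuropeptide galanin, had 278 UMIs in 11 of 29 GFP+ cells (317 CPM) and 4364 UMIs in 71 of 132 GFP- cells (1334 CPM), a ratio of 0.238 (0.210 to 0.268). In Myog-positive cells the Gal ratio was 1.10 (0.984 to 1.23) and in other cells 1.73 (1.67 to 1.78). Whether the ratio differs between the cell groups was not tested. Tuba4a, an alpha-tubulin, had 14.8 and 72.4 CPM (0.205) in GFP+ and GFP- contractile myocytes, and ratios of 2.04 in Myog-positive and 0.912 in other cells. Cxcl10, an interferon-induced chemokine, had 0 UMIs in GFP+ and 77 UMIs in 8 GFP- contractile myocytes, 37 of them in 1 cell, and was lower in GFP+ other cells as well (13.8 against 73.4 CPM). Fgf21, a stress hormone that muscle can secrete, had 1 UMI in GFP+ and 90 UMIs in 10 GFP- contractile myocytes, a ratio of 0.0415 (0.00104 to 0.237). Sort and library differed together between the fractions, so their effects cannot be told apart.

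**Figure D5:**
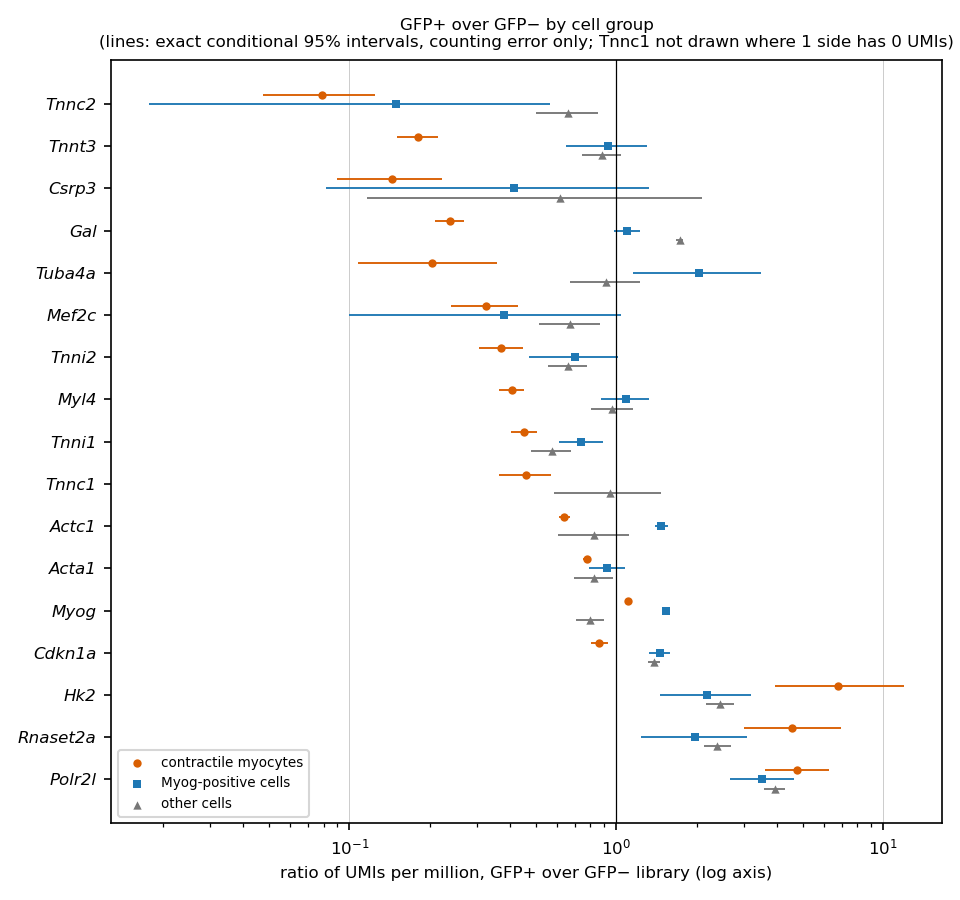
Ratio of CPM in the GFP+ over the GFP- library (log axis) for 17 genes in contractile myocytes, Myog-positive cells and other cells, with exact conditional 95% intervals that cover counting error only; Tnnc1 is not drawn for Myog-positive cells, where GFP+ cells had 0 UMIs. Tnnc2, Tnnt3, Gal and Tuba4a lie far below 1 in contractile myocytes (0.0791, 0.181, 0.238 and 0.205), and Polr2l lies above 3 in all 3 cell groups.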

How the data were processed

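Single-cell 3′ RNA counts (10x Genomics kit v3.1, 20000 cells loaded per fraction) were deposited by the authors as raw, unfiltered UMI count matrices of 32286 features, 1 per sorted fraction. They were made with Cell Ranger 4 per the file headers, and Cell Ranger, Seurat and mm10 are named in the submitters' processing notes. Counts were not normalised before deposit.

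From these counts, cells were chosen by the limits given above, UMIs were summed per cell group and library, and ratios of CPM were given with exact conditional 95% intervals. A gene was called at 20 CPM or more on 1 side and a ratio of at least 2 or at most 0.5, and a count of 0 was set to a floor of 3 UMIs over the group. With 1 library per fraction no test was made and no p-value is given. Named genes were up to 6 measured genes per list by CPM in GFP- contractile myocytes with a fixed set of regulators, the 12 highest and 8 lowest outside the lists, and the 8 highest and 8 lowest between fractions; mitochondrial, ribosomal protein, sex-linked and unnamed genes were left out of the rankings. Many list genes outside this rule were named after their values were seen. Among them were Tnni1, Tnni2, Tnnc1, Tpm3, Lmod2, Lmod3, Actn2, Mybph, Mybpc1, Myom2, Xirp1, Xirp2, Casq1, Casq2, Trdn, Pgam2 and Tcap. Several of the largest ratios given, such as those of Casq2 and Tnnc1, belong to genes picked in this way. Members and the 23 lists were chosen with earlier results of these data known. Aldoa, borne by 2 feature IDs, was left out, and some genes that the ranking picked are not reported here. Doublets were called with scrublet in scanpy 1.11.5 and kept. The counting steps were tested on simulated data. Figures were drawn with matplotlib 3.10.9, and intervals came from scipy 1.17.1 with numpy 2.4.6 and pandas 2.3.3 under Python 3.11.15. Alternatives changed the cell limits, the genes of the sum, the weight of cells, the scaling and the CPM filter.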

Additional observations from a re-analysis of the deposited data

Results flagged for a closer look

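Some genes stood on opposite sides of 1 in the 2 libraries when contractile myocytes were set against the same kind of cell. With 1 library per fraction, the difference between the libraries was not tested for any of them. Gal, galanin, had a ratio of contractile myocytes over Myog-positive cells of 0.675 in the GFP+ library and 3.12 in the GFP- library, and over other cells of 0.533 and 3.87. Spry1, an inhibitor of growth factor signalling, had 0.551 and 1.74 over Myog-positive cells and 0.353 and 1.31 over other cells. Birc5, a gene of cell division, had 1.70 in the GFP+ library and 0.756 in the GFP- library over Myog-positive cells. Hist1h2ap, a histone gene, had 1.29 and 0.277 over other cells, with 95 and 62 of its 160 GFP+ UMIs in 2 cells. Meg3, an imprinted RNA, had 1.86 and 0.608 over Myog-positive cells, with 26 of its 36 GFP+ UMIs in 1 cell.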

How the results depend on the processing

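The share of contractile myocytes was 6.97% of GFP- cells with a sum of at least 10, 2.32% of GFP+ and 3.58% of GFP- cells with at least 40, and 1.66% and 3.13% without Acta1 in the sum. Genes called against GFP+ Myog-positive cells, 463 as reported, were 760 with a sum of at least 40, 1243 without Acta1, 879 with each cell weighted equally, 54 at 100 CPM and 3520 with no CPM filter. Against GFP- Myog-positive cells they were 85 at 100 CPM and 3722 with no filter, and against other cells 368 and 7880 in the GFP+ and 372 and 8881 in the GFP- library. Between fractions, 292 as reported, they were 625 with a sum of at least 40, 975 without Acta1, 533 with equal weight (57.2% higher in GFP+, against 38.4% as reported), 56 at 100 CPM, 4197 with no filter, 537 within sums of 20 to 50 and 793 within 50 or more. Scaling by the median gene made 25.5% of the calls against GFP+ other cells higher, against 35.9%. The ratio of GFP+ over GFP- contractile myocytes changed direction without Acta1 for Hist1h2ap (0.483), Hk2 (0.870) and Myog (0.875), within sums of 20 to 50 for Acta1 (1.34), Actc1 (1.16), Cdkn1a (1.60), Cdkn1c (1.18), Ckm (2.62), Klhl41 (1.45) and Tnni1 (1.21), and within 50 or more for Myog (0.992). Mymk, Lmod2, Actn2 and Acta2, whose intervals spanned 1 over all cells, were also above 1 within 20 to 50. The cause was not tested. In all, 407 of 521 values of 35 genes over 15 settings stayed within the counting interval, 103 lay outside it and 11 reversed. The settings of 100 CPM and of no CPM filter cannot change a ratio. All 35 values of each are therefore among the 407 by construction and say nothing about stability. Cxcl10, Fgf21 and Myoz2 gave no value within sums of 20 to 50, nor Hist1h2ap within 50 or more. The ranges of the sum, the Myog limit on contractile myocytes and the limit of 5000 UMIs were chosen after seeing the data. No paired analysis was possible because each fraction was 1 library.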
